A study of Homo sapiens with 12 samples.

Results

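Cytosolic ribosomal protein genes encode the proteins of the small (RPS) and large (RPL) subunits of the ribosome, and RPLP0, RPLP1 and RPLP2 form the stalk of the large subunit that recruits translation factors. They were taken as the rows whose symbol is RPL or RPS followed by digits and an optional A or X, plus RPLP0, RPLP1, RPLP2 and RPSA. The rule uses names alone, and it found 77 genes among the 75253 rows of the table: 31 of the small subunit, 43 of the large subunit and 3 of the stalk. Mitochondrial ribosomal proteins, pseudogenes and paralogs with other names are outside it.

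The study sequenced total RNA from A375 and LOX-IMVI BR, 2 lines of human metastatic melanoma, each given a control treatment, 6-thio-dG at 5 µM or BIBR1532 at 25 µM. Each line and treatment had 2 biological replicates, so there were 12 libraries in 6 groups. 6-thio-dG is a thiolated guanine nucleoside that telomerase can add to telomeres, and BIBR1532 is a non-nucleoside inhibitor of the catalytic subunit of telomerase. A375 is an established BRAF-mutant line. The vehicle of the control, the length of exposure and what BR stands for are not stated in the sources used here, and whether replicates were grown apart was not stated beyond the word biological. Of 10 melanocyte-lineage markers (such as SOX10, MITF and PMEL), summed CPM (counts scaled to the library total) was 1008 to 2670 in the A375 libraries and 42.6 to 74.5 in the LOX-IMVI BR libraries. DCT was at 0 in the LOX-IMVI BR control and BIBR1532 groups, and TYR was at 0 in the control and BIBR1532 groups of both lines. Summed CPM of 5 fibroblast markers, which include collagens, was 1446 and 1456 in the LOX-IMVI BR controls, 21.5 and 22.8 with 6-thio-dG, and 10.9 and 12.4 in the A375 controls. Their part in the results was not tested.

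Ribosomal protein mRNAs are made in large amounts and in near-matching proportions, and growing cells spend much of their transcription on them. As background, nearly all of them begin with a cytosine followed by a run of pyrimidines, the 5′ terminal oligopyrimidine (TOP) motif, through which mTORC1 and the RNA-binding protein LARP1 control their translation and stability. MYC promotes their transcription. Some members also act outside the ribosome: RPL5 and RPL11 bind MDM2, the ubiquitin ligase of p53, when ribosome assembly is disturbed.

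The starts of the genes on which the results turn were read from RefSeq promoter windows on GRCh38.p14, since the deposited table holds no coordinates. Each sequence below runs from 15 bases before the annotated start to the 15th base of the transcript, with the unbroken run of C or T through the start in capitals. RPS6, RPLP0, RPS3A and RPL22 are shown as members that were called lower in A375 (RPLP0 with BIBR1532 only). RPSA is shown as an abundant member that was not called there, and RPS29 and RPS26 as members that were higher with 6-thio-dG. These genes do not stand for the family: RPL15, RPL6, RPS7 and RPL10A, also called lower with 6-thio-dG in A375, had no TOP start as counted below. RPLP1 and RPL37A had no count in any library, and EEF1A1, a translation elongation factor, is a TOP gene outside the family.
RPS6 (chr9:19380222-19380251, minus strand): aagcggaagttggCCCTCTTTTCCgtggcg
RPLP0 (chr12:120201097-120201126, minus strand): gcgcgggcgcgaggCCCTTCTCTCgccagg
RPS3A (chr4:151099613-151099642, plus strand): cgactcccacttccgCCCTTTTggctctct
RPL22 (chr1:6199581-6199610, minus strand): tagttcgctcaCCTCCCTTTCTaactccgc
RPSA (chr3:39406705-39406734, plus strand): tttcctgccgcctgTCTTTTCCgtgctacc
RPLP1 (chr15:69452803-69452832, plus strand): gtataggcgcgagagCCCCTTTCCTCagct
RPL37A (chr2:216498829-216498858, plus strand): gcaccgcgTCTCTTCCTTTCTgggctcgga
EEF1A1 (chr6:73521018-73521047, minus strand): gtcgccgtgaacgTTCTTTTTCgcaacggg
RPS29 (chr14:49598696-49598725, minus strand): ccccgagcgcgcagCTggcagcggtggttg
RPS26 (chr12:56041903-56041932, plus strand): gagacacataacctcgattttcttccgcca
The first 8 of these genes had a run of 7 to 13 pyrimidines. At the annotated start of RPS29 the run was 2 bases long, and RPS26 had a purine there with a pyrimidine stretch just downstream.

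A TOP start was counted where the annotated first base was C and at least 4 pyrimidines followed it. Of the 77 members, 62 had at least 1 promoter window, and 46 of those (74.2%) had such a start. It was present in 46 of the 77 member windows (59.7%) and in 4.07% of all 35116 windows of the table. The motif CCGGAAG, a core bound by ETS-family factors, was searched on both strands of the same windows and was found in 33.8% of member windows and in 10.3% of all windows. A match describes these letters and is no evidence of binding.

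The members fell into widely separate count classes. Of the 77, 38 had at least 1000 counts in every library, led by RPS6, the phosphorylation target of the S6 kinases, and RPLP0. In contrast, 4 members (RPS25, RPLP1, RPS28 and RPL37A) were listed at 0 in every library, and 16 more had at most 21 counts in any library, among them RPL41, RPS27, RPL19 and RPL13A. Every cell uses these genes, so a value at or near 0 can be a failed count, and levels were not ranked between genes. The 25 members with at most 100 counts in every library had a median of 8 annotated pseudogenes in GENCODE and the other 52 a median of 10.5. Exons covered for at least 50% by another annotated gene were found in 3 of the 25 and in 3 of the 52. RPL18, RPS18 and RPS12, whose products belong to every ribosome, were in the low class too.

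**Figure D1:**
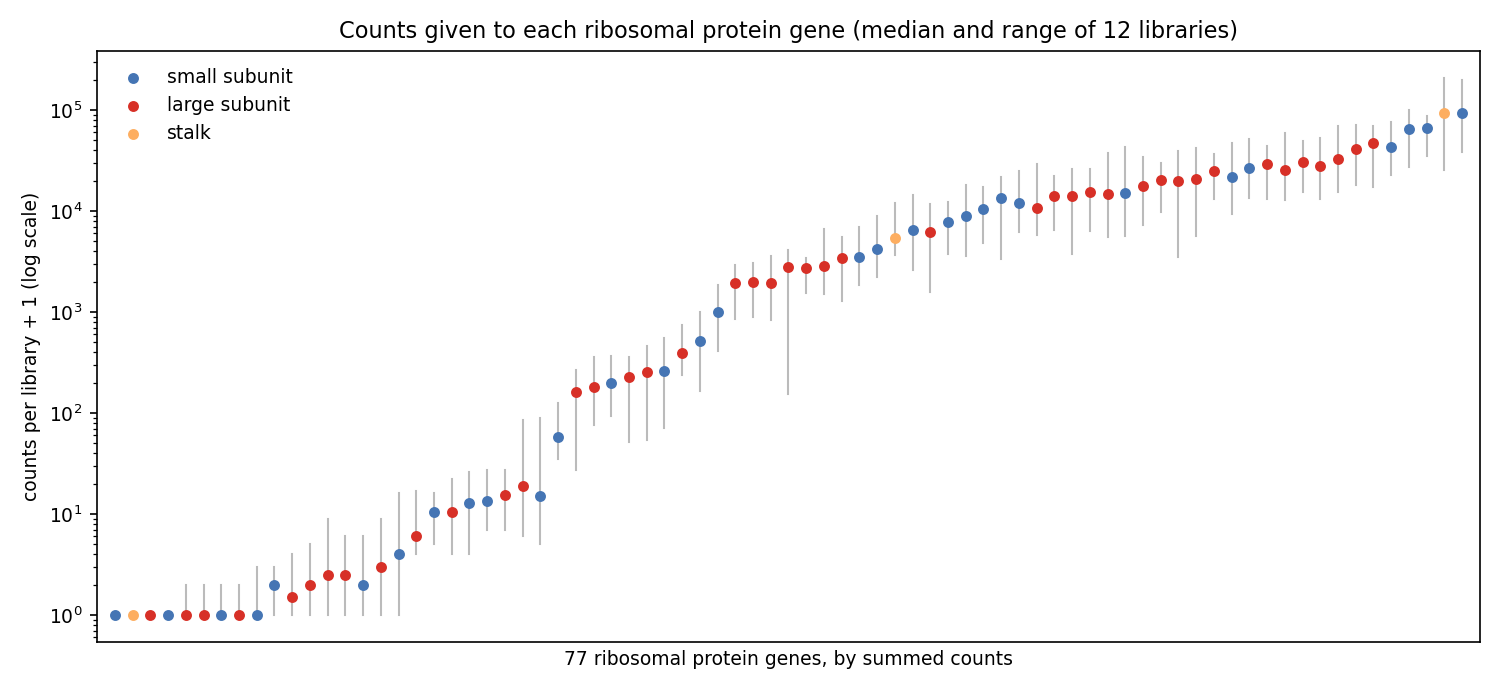
Counts plus 1 on a log axis for each of the 77 genes, ordered by summed counts; points are the median of 12 libraries, bars run from the lowest to the highest library, and colour gives the subunit. The genes at the left stay at 0 to 8 counts, 38 genes on the right have at least 1000 counts in every library, and members of both subunits occur along the whole range.

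Of the 77 members, 61 passed the filter on low counts and were tested: 25 of the small subunit, 34 of the large subunit and 2 of the stalk. The 16 that were not tested had at most 8 counts in any library, among them RPS13, RPS14, RPS25, RPS27, RPS28, RPL9, RPL10, RPL13A, RPL17, RPL19, RPL24, RPL30, RPL37A, RPL41 and RPLP1. A gene was called when edgeR's quasi-likelihood test gave a Benjamini-Hochberg adjusted p under 0.05 over all 29114 rows tested. Levels below are TMM-scaled CPM, that is CPM after a further scaling between libraries, and differences are log2 fold changes ± SE.

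Library totals ran from 11813388 to 25822381 counts. The 2 control libraries of A375 stood apart from each other: for members, the median absolute log2 difference between the replicates was 1.31 there, against 0.23 in the 6-thio-dG group of A375 and 0.05 in the LOX-IMVI BR controls. Their scaling factors were 1.04 for replicate 1 and 0.75 for replicate 2. The biological coefficient of variation was 36.1% in A375 fitted alone and 4.55% in LOX-IMVI BR fitted alone. The counts of members called against the A375 control are therefore given with each control library left out, and a called gene is given without a control library where that ended its call or moved its value by over 1.5 times.

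The members took 5.81% of all counts in replicate 1 of the A375 control and 10.1% in replicate 2. With 6-thio-dG the A375 shares were 5.77% and 5.79%, and with BIBR1532 they were 4.45% and 4.41%. Both BIBR1532 libraries of A375 lay below both controls, while the 6-thio-dG libraries were close to control replicate 1 and far below replicate 2. In LOX-IMVI BR the share was 4.59% and 4.56% in the controls, 4.83% and 4.89% with 6-thio-dG, and after BIBR1532 it was 2.90% and 2.80%. There the 2 libraries of each group were nearly alike, and the BIBR1532 group was the lowest of all 6 groups. The exact 95% binomial intervals cover counting error only and were narrow, for example 5.80% to 5.82% in the first A375 control, so the spread between libraries sets the precision. In bulk RNA, fewer cells with high levels and less RNA per cell cannot be told apart.

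**Figure D2:**
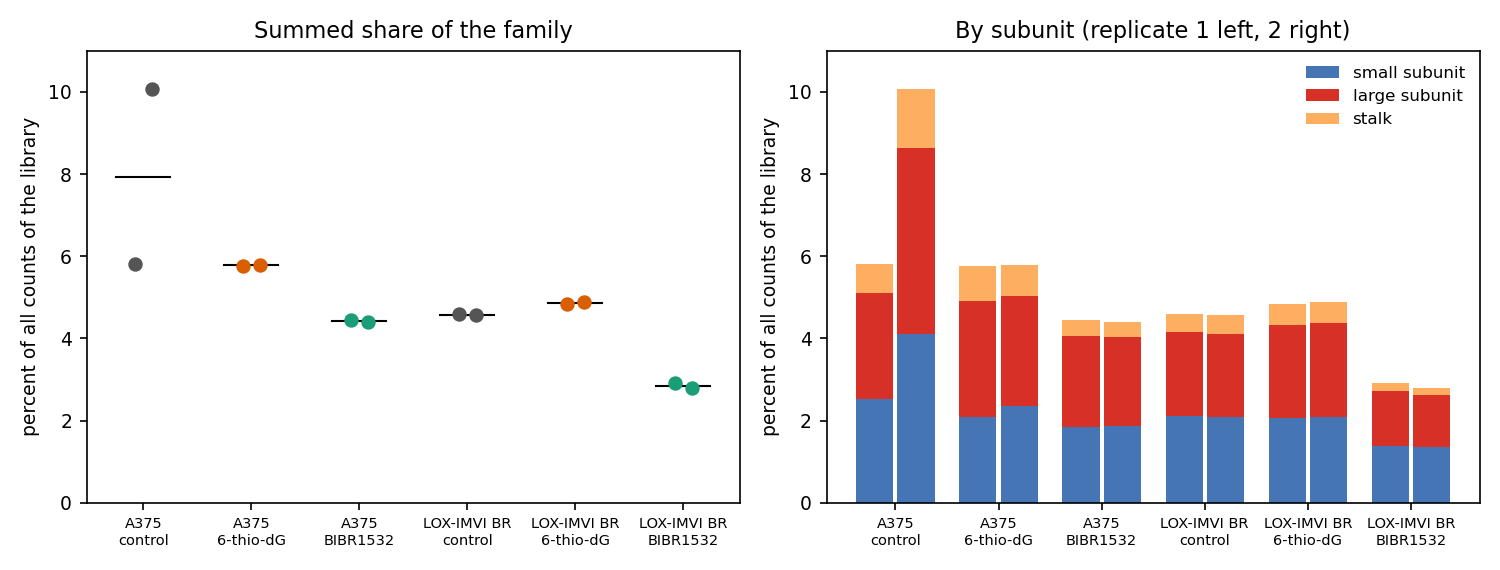
Percent of all counts of each library that fell on ribosomal protein genes, as a sum (left; points are libraries and lines group means) and split by subunit (right; stacked bars from 0, replicate 1 at the left). The A375 controls are at 5.81% and 10.1%, and the LOX-IMVI BR libraries given BIBR1532 are the lowest at 2.90% and 2.80%.

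The stalk, whose counts were mostly of RPLP0, lost the largest part of its share with BIBR1532. In LOX-IMVI BR control replicate 1, RPLP0 had 91222 counts and RPLP2 8628, and RPLP1 had 0. RPLP2 by itself had log2 fold changes of -0.42 in A375 and -0.73 in LOX-IMVI BR, where the member medians were -1.04 and -0.67. The fall in the stalk share is therefore mainly that of 1 gene, RPLP0. RPLP0 and RPLP2 together took 0.440% and 0.446% of the counts in the LOX-IMVI BR controls, and 0.187% and 0.177% with BIBR1532. In A375 the stalk share was 0.701% and 1.44% in the controls, and 0.397% and 0.384% with BIBR1532. The small and large subunits kept close to each other in LOX-IMVI BR: the small subunit took 2.10% and 2.08% in the controls and 1.39% and 1.35% with BIBR1532, and the large subunit 2.05% and 2.04% and then 1.33% and 1.27%.

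With BIBR1532, A375 had lower levels of many members of both subunits. Of the 61 tested, 26 were called lower (9 small subunit, 16 large subunit and RPLP0) and 0 higher, where 7.29% of all rows tested were called lower and 8.49% higher. The edgeR count of 0 higher was also 0 at an unadjusted p under 0.05 and by DESeq2. At that unadjusted p, 4505 of the 29114 rows were higher. The median log2 fold change of the members was -1.04, a level of 0.486 times the control, and that of all rows was -0.04. In 42 of 61 members both treated libraries lay below both controls, which held for 27.3% of all rows. Control replicate 2 carried much of the size: without it 8 members were called lower (3.52% of all rows), 7 of them among the 26, and the median was -0.32, while without replicate 1 the count was 43 (7.52% of all rows) and the median -1.61. The count fell to 1 when either BIBR1532 library was left out (0.289% and 0.344% of all rows), and to 2, RPL7 and RPS3A, when A375 was fitted alone (0.558% of all rows). Of the genes named below for BIBR1532 in A375, members or not, MYC was the one whose call held without either BIBR1532 library; RPS3A kept its call without the first and RPS6 without the second.

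RPS6 was at 7438 and 11941 CPM in the A375 control libraries and at 3020 and 3258 with BIBR1532. The 2 groups did not overlap, and the gene fell by 1.63 ± 0.29 on the log2 scale (adjusted p = 0.00234). It was called lower without either control library as well, with -1.24 without replicate 2. RPS3A, a small subunit protein that contacts initiation factors, was at 814 and 1597 CPM in the control libraries and at 256 and 282 with BIBR1532, and fell by 2.16 ± 0.38 (adjusted p = 0.00237).

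RPLP0, the base of the stalk and a common reference gene in quantitative PCR, was at 6495 and 18959 CPM in the A375 controls. With BIBR1532 it was at 3626 and 3404, below both, and it fell by 1.86 ± 0.39 on the log2 scale (adjusted p = 0.00664). Without control replicate 2 the change was -0.88 and still called. RPLP2, its partner in the stalk, was at 274 and 362 CPM in the control libraries and at 236 and 237 with BIBR1532, a change of -0.42 ± 0.28 that was not called.

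RPL7, a large subunit protein, had the largest called change of a member with BIBR1532 in A375, from 995 and 2051 CPM to 275 and 304, and fell by 2.40 ± 0.47 (adjusted p = 0.0044). Without control replicate 2 its value was -1.78 and it was no longer called. RPL22, an RNA-binding protein of the large subunit, was at 149 and 157 CPM in the A375 controls, which were alike for this gene, and at 42.9 and 54.6 with BIBR1532. It fell by 1.65 ± 0.44 (adjusted p = 0.0227), and the call was lost without either control library (-1.68 and -1.61). The other members with the largest called changes had low counts. Whether reads of these genes were lost in counting was not tested, so their CPM is no measure of a low level. RPS27A, which is made fused to ubiquitin, went from 4.67 and 7.7 CPM to 1.75 in both libraries (adjusted p = 0.00581). RPL6 went from 17.3 and 28.3 CPM to 7.27 in both (adjusted p = 0.0127). Without control replicate 2 RPL6 lost its call (-1.25).

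Of the MDM2-binding pair, RPL5 was at 1021 and 1633 CPM in the A375 control libraries and at 552 and 621 with BIBR1532, and fell by 1.18 ± 0.30 (adjusted p = 0.0182). RPL11 was at 1893 and 4769 CPM in the control libraries and at 1709 and 1707 with BIBR1532, a change of -0.96 ± 0.34 that was not called. The difference between the 2 genes was not tested. Of the 8 members on the list of MDM2-binding proteins, 7 were tested and RPL5, RPS7 and RPS27A were called lower, as were 26 of all 61 members and 7.29% of all rows. The list's median of -1.08 was close to the -1.04 of all members, and it was -0.20 without control replicate 2, where the same 3 were called, and -1.48 with 5 called without replicate 1. RPSA, the small subunit protein also known as the laminin receptor, had 2081 and 6840 CPM in the control libraries and 3103 and 2888 with BIBR1532, so the treated libraries lay between the 2 controls and the gene was not called (-0.57 ± 0.40).

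**Figure D3:**
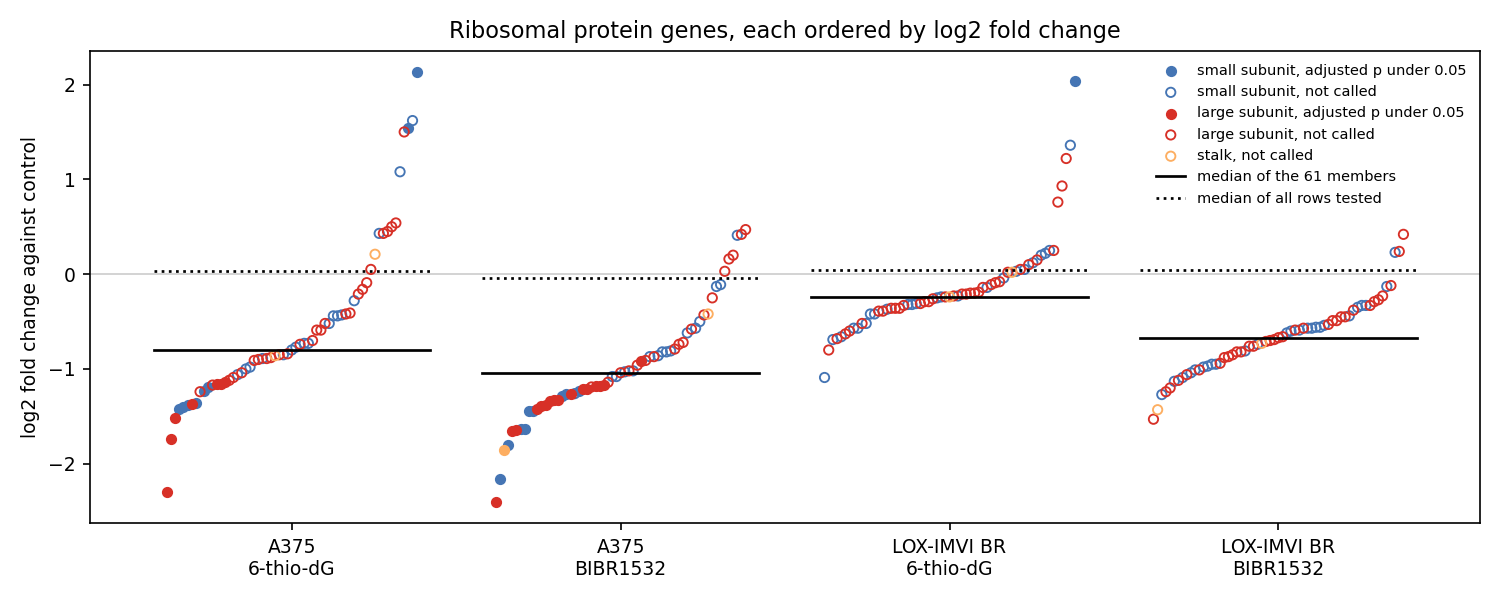
Log2 fold change against control of the 61 tested genes in 4 comparisons, each ordered from lowest to highest; filled points have an adjusted p under 0.05, colour gives the subunit, solid lines are the member medians and dotted lines the medians of all rows tested. The member medians are -0.80, -1.04, -0.24 and -0.67, and the medians of all rows lie between -0.04 and 0.05.

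With BIBR1532 in LOX-IMVI BR most members had lower levels, but no single member passed the threshold. Of 61 tested, 58 had a log2 fold change below 0, the median was -0.67 (0.629 times the control) and that of all rows 0.04. In 57 of 61 both treated libraries lay below both controls, a pattern that 27.8% of all rows had. The edgeR test called 0 lower and 0 higher, where 0.69% of all rows were called lower and 2.9% higher. At an unadjusted p under 0.05, 24 members were lower and 0 higher, where 1555 and 2947 of the 29114 rows were. The smallest adjusted p by edgeR was 0.0537, and DESeq2 called 2 lower (1.02% of all rows). In this fit the spread is shared with A375. Fitted on the 6 LOX-IMVI BR libraries alone, 53 of the 60 members then tested were called lower, where 21.8% of all rows were.

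RPLP0 had the smallest adjusted p of the members there. Its level was 4581 and 4570 CPM in the LOX-IMVI BR controls and 1748 and 1657 with BIBR1532, a change of -1.43 ± 0.38. In the fit of LOX-IMVI BR alone the change was -1.48 ± 0.05 (edgeR adjusted p = 2.37e-20). RPS6 went from 6467 and 6172 CPM to 3214 and 3190, a change of -0.98 ± 0.28 with an adjusted p of 0.0732, and in the line alone it fell by 1.04 ± 0.05 (edgeR adjusted p = 4.03e-17). The groups were fully separate for both genes. The replicates of this line were nearly alike (biological coefficient of variation 4.55%), and whether they were grown apart was not stated. The small p-values of the line alone therefore measure the spread between these libraries only.

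RPL3, which forms part of the peptidyl transferase region, was at 774 and 765 CPM in these controls and at 377 and 362 with BIBR1532 (-1.06 ± 0.37, not called). RPL23A, a protein at the exit of the peptide tunnel, was at 137 and 133 CPM and then at 57.4 and 56.2 (-1.24 ± 0.34, not called). RPL23 had the lowest value of all members, -1.53 ± 0.64, but under 1 CPM in every one of these libraries. At the other end, RPS4X had 3921 and 3844 CPM in the control libraries and 3093 and 3103 with BIBR1532 (-0.33 ± 0.32, not called), and RPL22 had 200 and 186 CPM and then 162 and 152 (-0.29 ± 0.43, not called). RPL3, RPL23A, RPL23, RPS4X and RPLP2 are named here after their values were seen.

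With 6-thio-dG in A375, 13 members were called lower and 2 higher of the 61, where 8.21% of all rows were called lower and 9.86% higher. The median log2 fold change was -0.80 (0.574 times the control) and that of all rows 0.03. The 13 comprised 6 of the small and 7 of the large subunit, and both treated libraries lay below both controls in 20 of 61 members, against 20.5% of all rows. The sign of the median rested on control replicate 2: without it the median was 0.06, with 8 members lower (7.31% of all rows), 7 of them among the 13, and 5 higher (7.23% of all rows). Without replicate 1 the median was -1.37 with 37 lower (9.7% of all rows), and the 13 were all among them. With upper-quartile scaling the split was 5 lower to 4 higher, where 4.59% and 18.3% of all rows were. With the trend in GC content removed it was 18 to 4, where 20.4% and 15% of the rows with a GC value were.

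RPL22 had the largest change of a member with 6-thio-dG in A375. Its level was 149 and 157 CPM in the control libraries and 12.8 and 49.4 with 6-thio-dG, and it fell by 2.30 ± 0.45 on the log2 scale (edgeR adjusted p = 0.00399). The 2 treated libraries differed from each other by a larger ratio than the second did from the controls. The value was -2.28 without control replicate 2, -3.59 without the second 6-thio-dG library and -1.64 without the first, and the call held each time. RPL15, a large subunit protein, went from 389 and 593 CPM to 131 and 163 (fell by 1.74 ± 0.29, adjusted p = 0.00139).

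RPS6 fell as well, from 7438 and 11941 CPM to 3228 and 4336 (fell by 1.36 ± 0.29, adjusted p = 0.00584), and was called without either control, but not with the GC trend removed (-0.66). RPS7, which also binds MDM2, went from 928 and 2206 CPM to 562 and 641 (adjusted p = 0.0132), and RPL5 from 1021 and 1633 to 473 and 719 (adjusted p = 0.0171). RPS3A, RPS2 and RPL6 were called too, with log2 fold changes of -1.40, -1.42 and -1.52. These 3 lost their calls without control replicate 2 (-0.85, -0.36 and -1.14), where RPS7 was at -0.64 and still called. RPS7 and RPL5 lost their calls with upper-quartile scaling (-0.97 and -0.77), and RPS7, RPL5 and RPS3A without the first 6-thio-dG library (-1.29, -0.89 and -0.94). Without the second 6-thio-dG library RPS2 was not called (-1.11), and RPS3A and RPL6 were at -2.11 and -2.36, and RPL6 was at -1.0 without the first. In A375 alone, RPL22 and RPL15 were the members called lower, and of the other genes named below for 6-thio-dG in that line, RPL22L1, MYC and RPS26 kept their calls. RPLP0 was at 8141 and 5889 CPM with 6-thio-dG, where the controls had 6495 and 18959, so the groups overlapped and it was not called. RPL11, RPSA and RPS27A were not called either (-0.74, -0.73 and -0.43).

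With 6-thio-dG in LOX-IMVI BR, 1 member was called higher and 0 lower, where 9.81% of all rows were called higher and 7.16% lower. At an unadjusted p under 0.05, 4 members were lower and 3 higher, where 3650 and 4997 of the 29114 rows were. DESeq2 called 0 members lower. The median was -0.24 and that of all rows 0.05. RPS6 was at 4821 and 4956 CPM against 6467 and 6172 in the controls (-0.37 ± 0.28), RPLP0 at 3792 and 3965 against 4581 and 4570 (-0.24 ± 0.38), and RPSA at 1371 and 1433 against 2282 and 2233 (-0.69 ± 0.40), none of them called. The direction of the family depended on the scale: the scaled levels were lower in 44 of 61 members, while the share of all counts was higher, 4.83% and 4.89% against 4.59% and 4.56%. With upper-quartile scaling the median was -0.004. In the fit of this line alone 38 members were called lower and 8 higher, where 30.8% and 32% of all rows were.

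RPS29, a small zinc-binding protein of the small subunit, was higher with 6-thio-dG in both lines, and it belongs to the members with few counts. The 10 tested members with a mean under 100 counts over the 12 libraries had a median of 0.52 with 6-thio-dG in A375 and 0.21 in LOX-IMVI BR, and the other 51 had -0.86 and -0.25. All tested rows split in the same way: those with a mean under 100 counts had medians of 0.41 and 0.37, and the others -0.31 and -0.17. RPS12 (1.62 and 1.36), RPL39 (0.50 and 1.22) and RPL35A (0.54 and 0.93) also had values above 0 in both lines, as did RPL34 (0.45 and 0.76), whose mean was above that level, and none of them was called. With BIBR1532 the members with few counts had medians of -0.71 in A375 and -0.78 in LOX-IMVI BR. The split was made after the values were seen, and its part in the results for RPS29 was not tested. RPS29 had 12 and 14 counts in the A375 controls and 27 and 32 with 6-thio-dG, that is 0.449 and 1.27 CPM against 2.25 and 2.15, and rose by 1.54 ± 0.45 (edgeR adjusted p = 0.029). In LOX-IMVI BR it had 17 and 14 counts in the controls and 77 and 89 with 6-thio-dG, that is 0.854 and 0.637 CPM against 3.09 and 3.07, and rose by 2.04 ± 0.40 (adjusted p = 0.00339). The groups did not overlap in either line. The A375 call was lost without control replicate 1 (0.77), without the first 6-thio-dG library, with DESeq2 and in A375 alone, and the LOX-IMVI BR call without control replicate 2 (1.82). With BIBR1532 it had 12 and 9 counts in A375 and 4 and 7 in LOX-IMVI BR, and was not called. These counts are small, and GENCODE lists 32 pseudogenes of RPS29 that could share its reads.

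RPS26, a small subunit protein that lies beside the mRNA exit channel, rose with 6-thio-dG in A375. It had 9.61 and 6.34 CPM in the control libraries and 46.2 and 24.5 with 6-thio-dG, and rose by 2.13 ± 0.36 (edgeR adjusted p = 0.00161). In LOX-IMVI BR it had 13.3 and 11.7 CPM in the control libraries and 14.6 and 15.2 with 6-thio-dG (0.25 ± 0.34, not called). The difference between the lines was itself called, at -1.88 ± 0.49 for LOX-IMVI BR minus A375 (adjusted p = 0.0374). It lost that call without A375 control replicate 2 (-1.62) and without any 1 of the LOX-IMVI BR control or 6-thio-dG libraries. GENCODE lists 30 pseudogenes of RPS26.

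**Figure D4:**
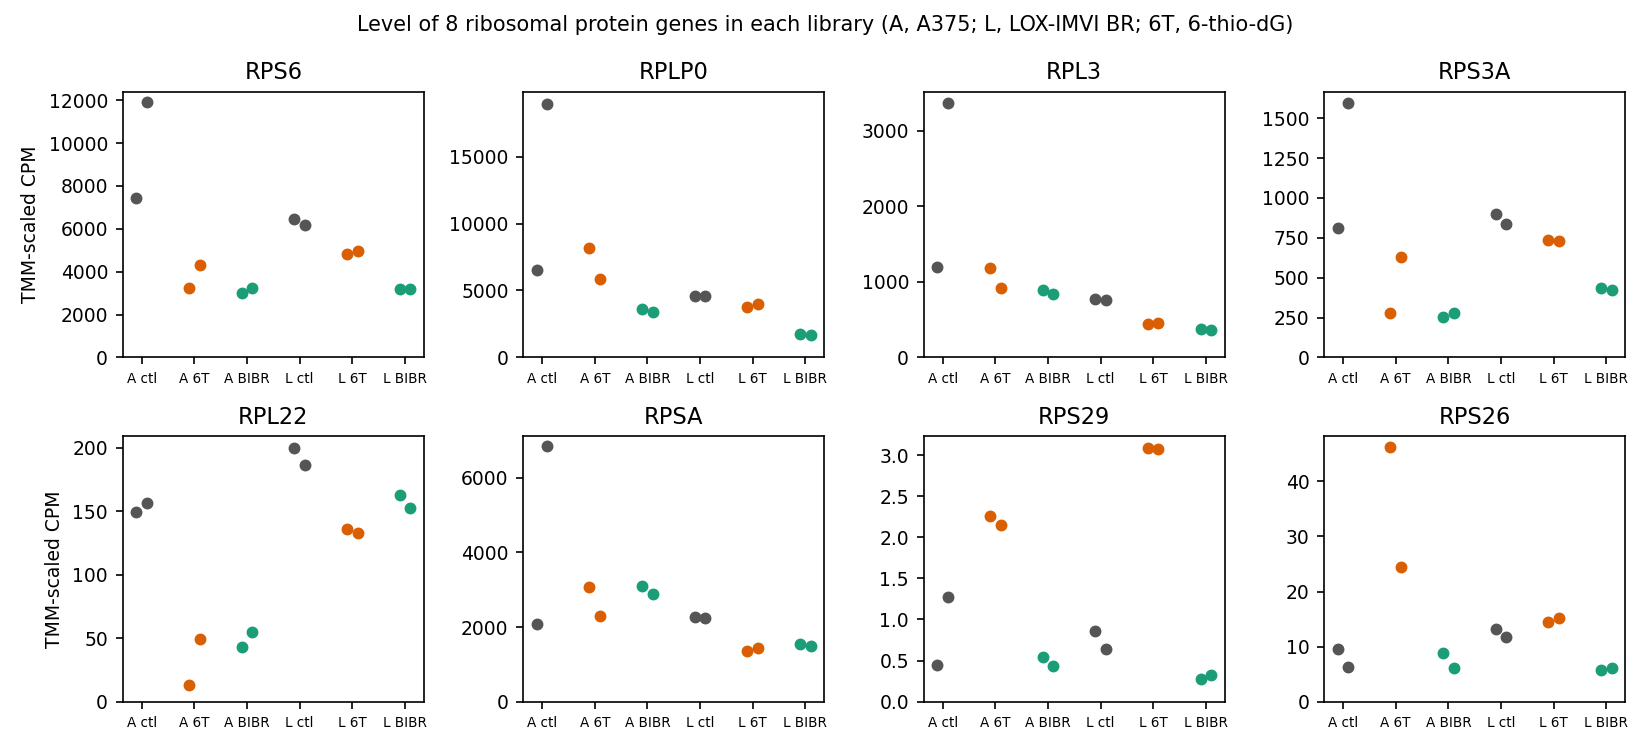
TMM-scaled CPM of 8 genes in each of the 12 libraries (A, A375; L, LOX-IMVI BR; ctl, control; 6T, 6-thio-dG); each point is 1 library and each panel has its own axis from 0. Control replicate 2 of A375 stands high for RPLP0 at 18959 and RPSA at 6840 but not for RPL22 at 157, and RPS29 is highest in the 6-thio-dG libraries of both lines.

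Of the 61 members, RPS26 alone was called for a compound effect that differed between the lines. For 6-thio-dG, 1 of 61 members was called lower in LOX-IMVI BR relative to A375 and 0 higher, where 3.06% and 2.48% of all rows were. At an unadjusted p under 0.05, 1 member was lower and 7 higher, where 2890 and 2859 of the 29114 rows were. DESeq2 called 1 higher. The median difference was 0.53, and it turned to -0.27 without A375 control replicate 2. For BIBR1532, edgeR called 0 members in either direction, where 1.55% of all rows were called lower and 2.09% higher. Of the members, 5 were higher and 1 lower at an unadjusted p under 0.05, where 3911 and 2312 of the 29114 rows were. DESeq2 called 0 members. The median difference of 0.36 turned to -0.31 without A375 control replicate 2 and was -0.004 with upper-quartile scaling. For RPSA the difference for BIBR1532 was 0.01 ± 0.56, for RPLP0 0.43 ± 0.53 and for RPS6 0.65 ± 0.40, and with standard errors of this size neither a like nor an unlike effect of the compound in the 2 lines is shown.

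Of the 13 members called lower with 6-thio-dG in A375, 11 (84.6%) were also called lower with BIBR1532, which is 42.3% of the 26 called there. Both comparisons use the same 2 control libraries, so this overlap is a count and not a separate result. Side by side, RPL15 had -1.74 with 6-thio-dG and -0.92 with BIBR1532, RPLP0 had -0.86 and -1.86, and RPS27A had -0.43 and -1.80.

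The make-up of the family, each member's share of the members' counts, differed between groups. RPLP0 held 11.6% and 14.0% of the family's counts in the A375 controls and 8.37% and 8.15% with BIBR1532. In LOX-IMVI BR it went from 8.75% and 8.98% to 5.61% and 5.47%. RPS4X went the other way in LOX-IMVI BR, from 7.49% and 7.56% to 9.92% and 10.2%, as did RPS15, from 3.95% and 3.96% to 5.32% and 5.23%. With 6-thio-dG in that line RPLP0 had 9.36% and 9.48%, and RPS4X 6.32% and 6.38%, the reverse of the order with BIBR1532. The A375 controls differed in make-up too: RPS6 held 13.3% and 8.84%, and RPL28 4.71% and 1.27%. Shares need no scaling between libraries, but they depend on gene length and on which members were counted at all.

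**Figure D5:**
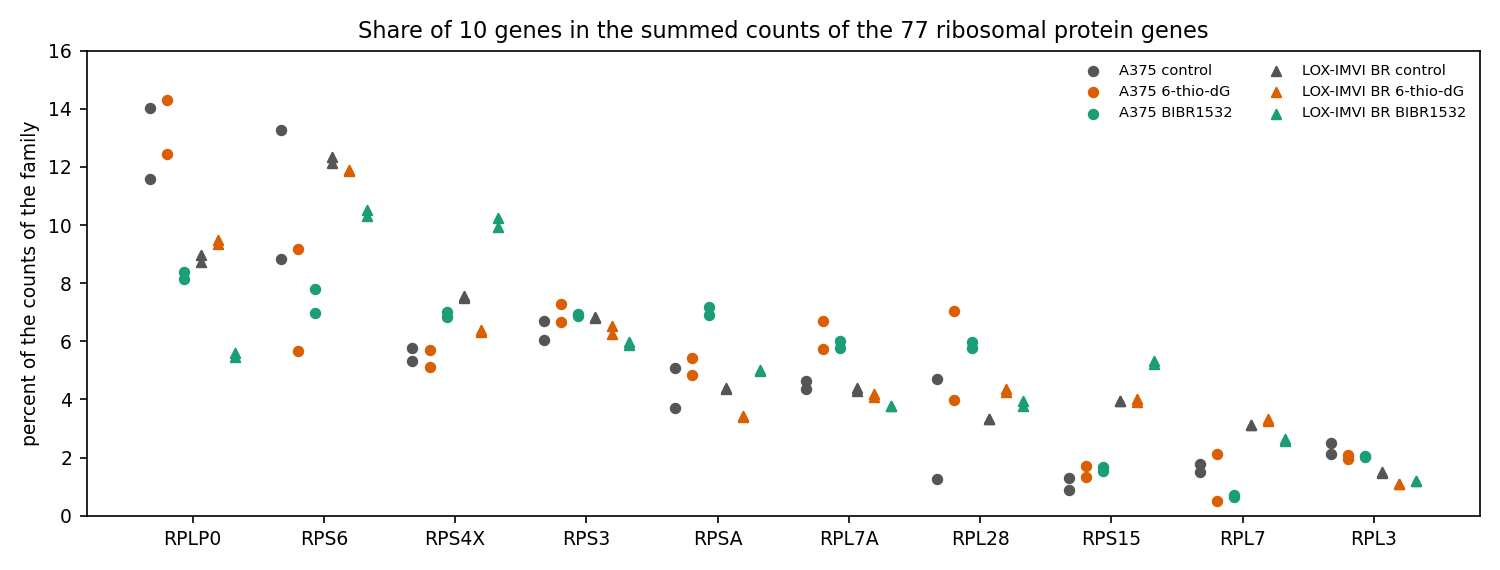
Percent of the family's counts held by 10 genes in each library; circles are A375, triangles LOX-IMVI BR, and colour gives the treatment (grey control, orange 6-thio-dG, green BIBR1532). RPLP0 is lowest in the BIBR1532 libraries of each line, and RPS4X and RPS15 are highest in the LOX-IMVI BR libraries given BIBR1532.

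The controls of the 2 lines also differed. Of 61 members, 27 were called lower in LOX-IMVI BR and 1 higher, where 28.8% of all rows were called lower and 21.1% higher, and the median was -0.82 against -0.12 for all rows. RPS21, a small protein of the small subunit, was at 520 and 528 CPM in LOX-IMVI BR and at 1175 and 3927 in A375, and was lower by a log2 fold change of -2.28 ± 0.42 (edgeR adjusted p = 0.000387). RPL35 and RPL34 were called lower too, with -1.79 and -1.77, and without A375 control replicate 2 they were at -0.64 and -1.10, still called. RPS15, a small subunit protein near the decoding site, was at 2068 and 2014 CPM in LOX-IMVI BR and at 736 and 1201 in A375, and was the member called higher (1.08 ± 0.30, adjusted p = 0.00808). Without A375 control replicate 2 the median was -0.12, with 12 lower and 5 higher (25.2% and 16.2% of all rows), and without replicate 1 it was -1.11 with 39 lower (24.8% of all rows). RPS21 and RPS15 kept their calls in both cases, at -1.16 and 1.48 without replicate 2.

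Members were also split by the annotated TOP start. With BIBR1532 the 36 tested members with such a start had a median of -1.06 in A375 and -0.60 in LOX-IMVI BR, and the 12 without had -0.97 and -0.73. With 6-thio-dG the medians were -0.73 and -0.91 in A375, and -0.21 and -0.28 in LOX-IMVI BR, with the TOP group first. The ranges of the 2 classes overlapped in all 4 comparisons, and the difference was not tested. The split depends on the exact annotated first base. RPS7, counted as without such a start, had a run of 11 pyrimidines through its first base, and RPL3 a run of 5.

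Other genes that carry a TOP motif were followed from a list, of which 15 were tested. With BIBR1532 in A375, 6 of 15 were called lower and 0 higher, with a median of -0.95, where 7.29% of all rows were called lower and 8.49% higher. Without control replicate 2, 1 was called lower, which was not among the 6, and the median was -0.48; without replicate 1, 8 were called lower and the median was -1.30, and without either BIBR1532 library 0 were. EEF1B2, an exchange factor of elongation factor 1, went from 690 and 1941 CPM to 479 and 457 (fell by 1.49 ± 0.37, adjusted p = 0.0169). EEF1G, EIF3A and EIF3E, subunits of translation factors, fell by 1.33, 2.14 and 1.58. Without control replicate 2, EEF1B2, EEF1G and EIF3E were at -0.56, -0.57 and -0.57 and lost their calls, and EIF3A lost its call without either control (-2.09 and -2.18). EIF3E also lost its call with the GC trend removed (-0.44). With BIBR1532 in LOX-IMVI BR all 15 had values below 0, the median was -0.73, and 1 was called: EEF1A1, the carrier of aminoacyl-tRNA, went from 21176 and 20767 CPM to 8088 and 7768 and fell by 1.40 ± 0.33 (adjusted p = 0.027), where 0.69% of all rows were called lower. Its value was -1.43 to -1.38 with any 1 of the 4 libraries left out, and it was not called in any of these fits. EEF2, the translocation factor, was at 12993 and 12672 CPM and then at 10039 and 9939 (-0.36 ± 0.35, not called). With 6-thio-dG, 1 of 15 was called in each direction in A375, EEF1B2 lower (-1.64) and EEF1D higher (1.53), which is near the 8.21% and 9.86% of all rows. EEF1B2 was at -0.73 without control replicate 2, still called, and 6 genes were called lower without replicate 1. In LOX-IMVI BR NAP1L1 was called lower (-0.99), where 7.16% of all rows were, and lost its call with any 1 of the 4 libraries left out (-1.06 to -0.96).

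Of 10 ribosomal protein paralogs and fusion genes outside the naming rule, 8 were tested. RPL22L1, the paralog whose level RPL22 is known to hold down, fell in the comparison where RPL22 fell most: with 6-thio-dG in A375 it went from 34.7 and 74.1 CPM to 5.43 and 9.27 and fell by 2.88 ± 0.40 (adjusted p = 0.000461). It also fell with BIBR1532 in A375 (-1.33, adjusted p = 0.0282) and with 6-thio-dG in LOX-IMVI BR (-1.43, adjusted p = 0.0165), but the A375 call with BIBR1532 was lost without control replicate 2 (-0.68), and the LOX-IMVI BR call with any 1 of the 4 libraries left out (-1.52 to -1.36). RPL39L and RPL36AL were called lower with 6-thio-dG in A375 (-1.95 and -1.33), and RPL36AL with BIBR1532 too (-1.61). Without control replicate 2, RPL39L was at -1.15 and still called, and RPL36AL lost both calls (-0.95 with 6-thio-dG and -1.20 with BIBR1532). Without the first 6-thio-dG library RPL36AL was at -0.85 and not called, and without the second at -2.09. RPS27L, a p53-responsive paralog of RPS27, was called higher with BIBR1532 in A375 (0.93 ± 0.29, adjusted p = 0.0398) and not in the other 3 comparisons (0.80, 0.15 and -0.01). Without control replicate 1 it was at 0.72 and not called.

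Regulators of these genes were also followed, from a list of mTORC1, S6 kinase, LARP1 and MYC control of which 18 of 19 were tested. With 6-thio-dG 3 were called lower and 0 higher in A375, where 8.21% and 9.86% of all rows were. In LOX-IMVI BR 1 was called lower and 1 higher with 6-thio-dG, where 7.16% and 9.81% of all rows were. With BIBR1532 2 were called lower and 0 higher in A375, where 7.29% and 8.49% of all rows were. In LOX-IMVI BR 0 were called lower and 3 higher with BIBR1532, where 0.69% and 2.9% of all rows were. MYC was at 379 and 472 CPM in the A375 controls, and 27.9 and 18.1 after 6-thio-dG, where it fell by 4.21 ± 0.32 (adjusted p = 8.68e-06). After BIBR1532 it was at 92.5 and 89.3 and fell by 2.23 ± 0.30 (adjusted p = 0.000253). In LOX-IMVI BR it was at 424 and 410 CPM without a compound, 538 and 542 with 6-thio-dG (0.37, not called) and 1166 and 938 with BIBR1532, where it rose by 1.33 ± 0.29 (adjusted p = 0.0166). So in LOX-IMVI BR with BIBR1532 the MYC call was upward while 58 of 61 members had values below 0, but it was lost with any 1 of the 4 libraries left out (1.17 to 1.48). SESN2, a stress-induced inhibitor of mTORC1, went from 37.1 and 38.7 CPM to 341 and 313 with BIBR1532 in LOX-IMVI BR and rose by 3.11 ± 0.33 (adjusted p = 0.000107), and it rose there with 6-thio-dG (1.60, a call lost without LOX-IMVI BR control replicate 1) but fell with 6-thio-dG in A375 (-1.08). DDIT4, another inhibitor of mTORC1, fell with 6-thio-dG in LOX-IMVI BR from 368 and 353 CPM to 11.2 and 10.8 (adjusted p = 3.81e-06) and also fell in A375 (adjusted p = 0.0162). Without A375 control replicate 2 the A375 calls of SESN2 and DDIT4 were lost, both at -0.80. MXD1, a MYC antagonist, rose with BIBR1532 in LOX-IMVI BR (2.23 ± 0.33, adjusted p = 0.00132), a call lost without control replicate 2 (2.22). EIF4E, the cap-binding protein, went from 13.1 and 24.1 CPM to 5.20 and 6.64 with BIBR1532 in A375 and fell by 1.64 ± 0.48 (adjusted p = 0.0323), and lost the call without control replicate 2 (-1.15). MTOR, LARP1, EIF4EBP1 and RPS6KB1, which encode the kinase, the TOP-binding protein, the 4E-binding protein and an S6 kinase, were not called in any compound comparison, with values from -1.40 (RPS6KB1, BIBR1532 in A375) to 0.39. The part of these genes in the members' levels was not tested.

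Of 7 dedicated chaperones of ribosomal proteins, all tested, BCCIP was called lower with BIBR1532 in A375 (-1.79 ± 0.49, adjusted p = 0.0255), a call lost without either control (-2.07 and -1.44), and NAP1L1, which is on the TOP list too, with 6-thio-dG in LOX-IMVI BR. The other 2 compound comparisons called none of the 7. Of all rows, 7.29% were called lower with BIBR1532 in A375 and 7.16% with 6-thio-dG in LOX-IMVI BR. Over the 6 group means, the genes outside the family whose log2 CPM followed the mean log2 CPM of the members most closely, among 4383 candidates with at least 50 CPM on average, included ZBTB47 (r = 0.987), COX7A2L (0.982), EEF1G (0.970) and WDR46 (0.965). These 6 points share the A375 control libraries and their scaling, and the correlations are descriptions.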

How the data were processed

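RNA from cells in 6-well plates was purified with TRIzol and sequenced from non-stranded TruSeq libraries, per the labels' protocols, so reads of overlapping genes on opposite strands and of near-identical copies cannot be told apart. The authors deposited raw counts as whole numbers in a single table. Named in the submitters' processing notes are STAR, Picard, GATK and featureCounts 1.5.1, with hg19 and GRCh37 as builds; how reads matching several places were counted is not stated in the sources used here. NONCODE identifiers made up 54072 of the 75253 rows, and 4 rows whose names a spreadsheet had made ambiguous (0.000913% of counts at most) were dropped.

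Counts of all rows were fitted with edgeR 4.0.16 in R 4.3.3 (filterByExpr, TMM, robust quasi-likelihood, 1 mean per line and treatment over 12 libraries, 6 residual degrees of freedom), and p-values were adjusted over all 29114 rows tested. Alternatives were DESeq2 1.42.0, other scaling, no filter, a trend in GC content (GENCODE 29, all 77 members matched) removed, each line alone, a replicate block and leaving out each library. The scripts were tested on simulated counts. The p-values measure the spread between these samples only. Correlations of replicate deviations between groups ran from -0.137 to 0.35, with 1 of 15 over 0.1. The value of 0.35 was between the 6-thio-dG and BIBR1532 groups of A375. In these groups the replicate differences of members also followed GC content (r = 0.648 and 0.653). The LOX-IMVI BR replicates differed little (median absolute log2 difference of all rows 0.10 to 0.15), so low correlations there cannot decide on pairing. Whether replicate numbers pair the samples was not tested further. Named genes were, in each comparison, the 6 largest called falls and rises among members with separate groups, called members against the median, 8 members and 9 other genes followed whatever their result, and up to 4 called genes of each other list. Members, lists and rules were chosen with earlier results of these data known. Listed snoRNA host genes were not analysed here. Some genes that the naming rule selects are not reported here.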

Additional observations from a re-analysis of the deposited data

Results flagged for a closer look

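The test of the difference between the lines (LOX-IMVI BR minus A375, edgeR, adjusted over all rows) marked 5 genes for 6-thio-dG and 3 for BIBR1532 among the genes described above. For 6-thio-dG, RPS26 was the member marked, at -1.88 ± 0.49 on the log2 scale (adjusted p = 0.0374): it rose in A375 in both libraries and was near its control level in LOX-IMVI BR. MYC differed by 4.58 ± 0.42 (adjusted p = 4.92e-05), SESN2 by 2.68 ± 0.43 (adjusted p = 0.00235), MXD1 by 1.65 ± 0.45 (adjusted p = 0.0469) and DDIT4 by -3.74 ± 0.48 (adjusted p = 0.000529). For BIBR1532, MYC differed by 3.56 ± 0.41 (adjusted p = 0.000483), SESN2 by 2.87 ± 0.43 (adjusted p = 0.00314) and MXD1 by 2.14 ± 0.45 (adjusted p = 0.0209). The MXD1 differences lost their calls with any 1 of the LOX-IMVI BR libraries of the comparison left out, that for 6-thio-dG also without A375 control replicate 1 (1.15), and that for BIBR1532 also without either A375 BIBR1532 library (2.04 and 2.17).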

How the results depend on the processing

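The replicates of the A375 control set both ends of the member medians in A375 and between the controls, and the highest counts called lower. The lowest counts called lower with a compound in A375 came from leaving out a treated library. Leaving out 1 library at a time, members called lower ranged from 7 to 37 and higher from 1 to 5 for 6-thio-dG in A375, from 1 to 43 and from 0 to 1 for BIBR1532 in A375, and from 12 to 39 and from 1 to 5 between the controls. They stayed at 0 lower and 0 to 1 higher for 6-thio-dG, and at 0 in both directions for BIBR1532, in LOX-IMVI BR. Member medians ranged from -1.367 to 0.055 for 6-thio-dG and from -1.61 to -0.32 for BIBR1532 in A375, and from -1.11 to -0.12 between the controls. The difference between the lines ranged from -0.27 to 1.03 for 6-thio-dG, with 0 to 27 members higher and 0 to 2 lower, and from -0.31 to 0.89 for BIBR1532, with 0 to 18 higher and 0 to 3 lower. The share of all rows called in these left-out fits of the difference is not given here. Their counts of members alone are therefore no result about the family. Without A375 control replicate 2, EEF1A1 turned to 0.59 with 6-thio-dG in A375, with a range of -0.61 to 0.59 over the libraries left out. The difference for RPSA ranged from -1.05 to 0.66 for 6-thio-dG and from -1.09 to 0.62 for BIBR1532.

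For 6-thio-dG in A375, members lower to higher were 5 to 4 with upper-quartile scaling, where 1337 and 5341 of 29114 rows were called. They were 20 to 1 with the DESeq2 test, 36 to 1 without the filter and 2 to 1 in A375 alone. With the GC trend removed 4 were higher, where 2103 of 14048 rows were. For BIBR1532 in A375, 10 were lower with upper-quartile scaling, where 1684 of 29114 rows were. With the GC trend removed 40 were lower, where 2165 of 14048 rows were, and in A375 alone 2 (0.558% of all rows). For 6-thio-dG in LOX-IMVI BR, 3 were lower without the filter and 1 with the GC trend removed (2351 of 14048 rows). In the line alone 38 were lower and 8 higher, where 30.8% and 32% of all rows were. With upper-quartile scaling 3 were higher (3768 of 29114 rows), and 3 with the GC trend removed (1881 of 14048 rows). For BIBR1532 in LOX-IMVI BR, 2 were lower with upper-quartile scaling (230 of 29114 rows), 2 with DESeq2 (1.02% of all rows) and 13 without the filter. With the GC trend removed 11 were lower (725 of 14048 rows), and in the line alone 53 (21.8% of all rows). The difference for 6-thio-dG had 1 member higher with DESeq2, 9 without the filter and 3 with the GC trend removed (1449 of 14048 rows). That for BIBR1532 had 1 without the filter and a median of -0.004 with upper-quartile scaling. Between the controls 2 were higher without the filter and 3 with the GC trend removed (4182 of 14048 rows), which also turned MYC to 0.65. For the fits without the filter, the other DESeq2 counts and 6-thio-dG in A375 alone, the share of all rows is not given here. Those counts alone are no result about the family. Upper-quartile scaling moved the median of all rows to 0.43, 0.18 and 0.28 for 6-thio-dG in A375, BIBR1532 in A375 and 6-thio-dG in LOX-IMVI BR. The cause of these shifts was not tested.

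Over symbol rows alone, the mean share of the members was 6.22%, 4.70%, 4.80%, 5.24% and 2.998% in A375 with 6-thio-dG, A375 with BIBR1532, and the LOX-IMVI BR control, 6-thio-dG and BIBR1532 groups. As summed TMM-scaled CPM over the scaled total it was 5.21%, 4.25%, 5.16%, 4.12% and 3.07%. The replicate block was fitted although pairing by replicate number was not shown. With it, 11 and 21 members were lower in A375 with 6-thio-dG and BIBR1532. It gave 0 in LOX-IMVI BR and 23 between the controls. The share of all rows in that fit is not given here. Over the 166 results for single genes, 1627 of 1904 alternatives neither gained, lost nor reversed a call. Of these 1627, 65 had an uncalled value that changed sign. Another 96 gained and 177 lost a call, and 4 reversed. With 2 libraries a group and 16 members at 8 counts or fewer, changes in those members were not detectable here. Why these members had so few counts was not tested.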
